A study of Mus musculus with 3 samples.

Results

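The genes examined here are the forkhead transcription factor family of the mouse, 39 genes listed by family name, with earlier results of these data known, out of 21887 protein-coding genes on the numbered chromosomes (1 to 19) and on X and Y. They were read in chromatin immunoprecipitation followed by sequencing (ChIP-seq) from isolated kidney glomeruli of C57BL/6 mice aged 8 weeks. There was 1 library with a Foxc1 antibody (CST), 1 with a Foxc2 antibody (R&D Systems) and 1 of input DNA, and the input was not analysed here. The labels give no genotype or treatment beyond the strain, and glomeruli were collected as whole filtering units, so a peak cannot be tied to podocytes, mesangial cells or endothelium. The deposited lists held 5213 peaks for the Foxc1 antibody and 2881 for the Foxc2 antibody, of which 5207 and 2878 lay on those chromosomes. A peak was counted for a gene when its summit, the position of highest signal, lay inside the annotated gene span or within 50 kb of either end. By that rule 33 Foxc1 peaks and 27 Foxc2 peaks lay at forkhead genes. Each antibody had a single library, so there was no spread between replicates and no test between antibodies, and the peak lists carry no read counts, so depth is unknown.

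Forkhead factors share a winged-helix DNA-binding domain that contacts a core of the letters TGTTTAC or close relatives of it. The family is divided into lettered subfamilies. Foxc1 and Foxc2 are needed for kidney, vessel and eye development and are made in podocytes, the epithelial cells that wrap the glomerular capillaries. Other members range from Foxa pioneer factors of endoderm to Foxo factors held in check by insulin signalling and Foxp factors that act mainly as repressors. The loci described are thus genes of the family to which the named targets of both antibodies belong.

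Peaks lay at 23 of the 39 genes. The Foxc1 antibody had a summit at 16 of them (41.0%), where 29.3% of all protein-coding genes had 1 by the same rule. That share lies inside the exact Clopper-Pearson 95% interval of the forkhead genes, 25.6 to 57.9%. The Foxc2 antibody had a summit at 19 (48.7%, exact interval 32.4 to 65.2%), against 23.2% of all genes. These intervals treat the genes as separate, although neighbouring members share peaks. Both antibodies had summits at 12 genes (30.8%), against 12.5% of all, and either had 1 at 59.0%, against 39.9%. Those 12 were Foxc1, Foxc2, Foxd1, Foxf1, Foxj2, Foxk1, Foxk2, Foxl1, Foxn3, Foxo3, Foxp1 and Foxs1. The Foxc1 antibody alone had peaks at Foxi1, Foxj1, Foxp2 and Foxp4. The Foxc2 antibody alone had them at Foxd2, Foxe3, Foxh1, Foxj3, Foxn2, Foxo1 and Foxo6. The 39 genes form 35 loci, of which 20 had a summit. At 6 of the 23 genes (Foxc2, Foxe3, Foxf1, Foxh1, Foxk2 and Foxp4) another protein-coding gene was nearer to every peak counted.

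**Figure D1:**
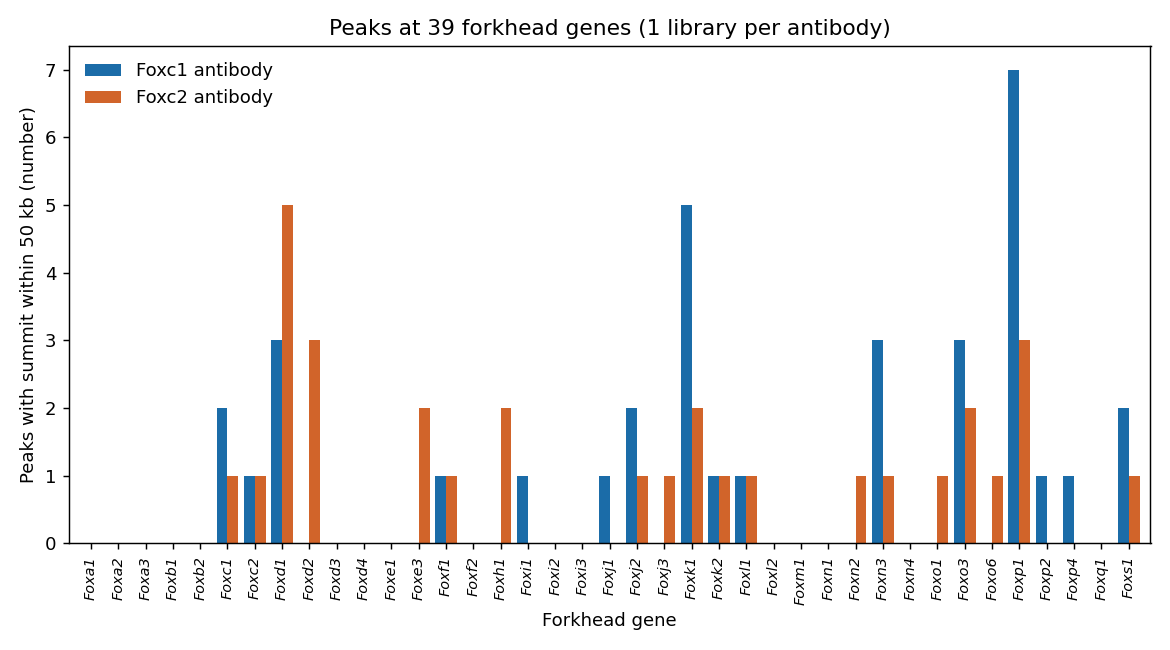
Number of peaks (vertical axis) with a summit inside or within 50 kb of each of the 39 forkhead genes (horizontal axis), for the Foxc1 antibody (blue) and the Foxc2 antibody (orange), 1 library each. Foxp1 had the most Foxc1 peaks, 7, and Foxd1 the most Foxc2 peaks, 5, while 16 genes had none.

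Many forkhead genes are short, and 23 of the 39 span under 10 kb. The median span was 4.46 kb, against 17.2 kb over all protein-coding genes. Short genes collect fewer summits, so the counts were also read within span classes. Of the 23 short members, 8 had a Foxc1 summit (34.8%, against 21.4% of all genes of that class) and 9 a Foxc2 summit (39.1%, against 18.4%). Among these short members, Foxc2, Foxf1 and Foxl1 share 1 peak of each antibody, and every peak of Foxe3 was also counted for Foxd2. The short genes counted are therefore not separate sites. Of the 16 longer members, 8 had a Foxc1 summit (50%, against 33.7%) and 10 a Foxc2 summit (62.5%, against 25.9%). In both classes the forkhead share stood above that of all genes, and the gap was wider for the Foxc2 antibody. No test was run on these shares, and they were not matched on the base content of promoters.

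**Figure D2:**
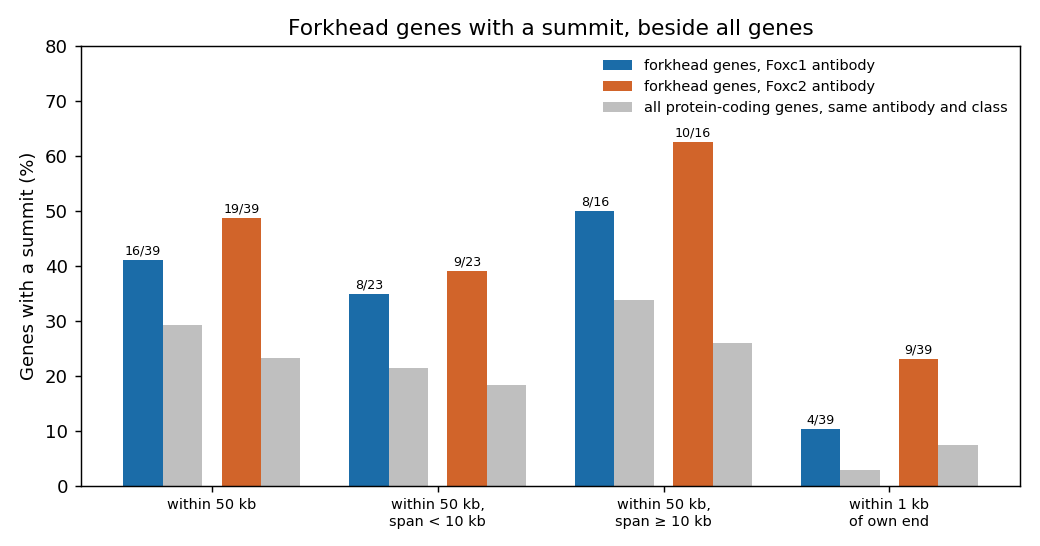
Percent of forkhead genes with a summit (blue, Foxc1 antibody; orange, Foxc2 antibody; number of genes above each bar) beside all protein-coding genes of the same class (grey), for summits within 50 kb, the same split by gene span, and summits within 1 kb of the gene's own end. Every forkhead bar is taller than the grey bar beside it.

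The gene Foxc1 itself (chromosome 13, 31806646 to 31810635) had a peak of each antibody at opposite ends. The Foxc2 peak (31806371 to 31806782) had its summit 7 bp before the annotated start site. Its fold enrichment was 4.47 over local background and its minus log10 q was 6.91, where q is the deposited adjusted p-value. The Foxc1 peak (31810354 to 31810594, fold 4.72, minus log10 q 9.46) lay inside the gene, 3.80 kb past the start and 185 bp from the far end, so the summits were 3811 bp apart. A second Foxc1 peak, of fold 5.06, lay 22.4 kb beyond the gene and inside Gmds, which encodes an enzyme of fucose synthesis. Counted from the strongest, the Foxc2 peak at the start ranked 958 of 2878 by fold and the Foxc1 peak at the far end 2926 of 5207, so neither was among the strong peaks of its list.

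The gene Foxc2 (chromosome 8, 121116171 to 121118895) had no peak at either end. Its only peaks were a Foxc1 peak of fold 4.27 (121127538 to 121127921) at 8.78 kb and a Foxc2 peak of fold 3.61 (121125437 to 121125746) at 6.70 kb. Both were nearer to Foxl1, a factor of gut mesenchyme, whose annotated end lay 7 bp from the Foxc1 summit and 2087 bp from the Foxc2 summit. The same peaks were counted for Foxf1, a factor of lung and gut mesenchyme, at 39.5 and 37.4 kb. These 3 genes thus rest on 1 peak of each antibody, at ranks 3476 of 5207 and 1977 of 2878.

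Promoter windows, 250 bases before to 50 bases after an annotated start, were taken from the RefSeq table (GRCm38.p6), which holds 29 windows of 25 forkhead genes. A Foxc2 peak covered 4 of the 29, at 4 genes, where 6.06% of all windows of protein-coding genes were under a Foxc2 peak. The 250 bases before the start are shown because they carry, or lie under, these peaks. In Foxc1, Foxd2 and Foxo3, capitals mark the Foxc2 summit with up to 10 bases on each side. In Foxj3, whose summit lies 244 bp past the start, capitals mark a match to the weaker forkhead core TGTTTNC, read on the other strand.
Foxc1 (chr13:31806396-31806645, plus strand): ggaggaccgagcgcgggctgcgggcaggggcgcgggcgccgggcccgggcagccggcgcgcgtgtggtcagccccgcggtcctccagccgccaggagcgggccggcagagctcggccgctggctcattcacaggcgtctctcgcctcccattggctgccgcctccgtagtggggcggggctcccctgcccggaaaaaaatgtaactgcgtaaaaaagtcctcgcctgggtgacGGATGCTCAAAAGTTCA
Foxd2 (chr4:114908899-114909148, minus strand): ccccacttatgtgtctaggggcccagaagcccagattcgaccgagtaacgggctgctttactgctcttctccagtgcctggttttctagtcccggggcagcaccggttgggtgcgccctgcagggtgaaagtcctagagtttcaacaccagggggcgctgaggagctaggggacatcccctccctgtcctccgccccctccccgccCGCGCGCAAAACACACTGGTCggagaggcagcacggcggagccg
Foxo3 (chr10:42276696-42276945, minus strand): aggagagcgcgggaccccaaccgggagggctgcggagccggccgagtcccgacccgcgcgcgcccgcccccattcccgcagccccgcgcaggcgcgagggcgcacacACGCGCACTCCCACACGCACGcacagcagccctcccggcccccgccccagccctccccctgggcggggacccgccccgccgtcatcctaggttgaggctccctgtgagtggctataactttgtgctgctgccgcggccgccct
Foxj3 (chr4:119539411-119539660, plus strand): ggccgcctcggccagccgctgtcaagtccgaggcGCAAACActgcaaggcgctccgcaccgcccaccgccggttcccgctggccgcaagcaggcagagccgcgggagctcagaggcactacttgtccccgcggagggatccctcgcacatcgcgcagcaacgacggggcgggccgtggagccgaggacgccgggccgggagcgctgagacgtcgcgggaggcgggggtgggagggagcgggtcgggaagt

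The full windows of these 4 genes had a median of 71.3% C and G and of 33.5 CG dinucleotides. All 1289 windows under a Foxc2 peak gave medians of 69.0% and 31.0, and all 21263 windows of protein-coding genes gave 56.3% and 13.0. The 29 forkhead windows together gave 64.0% and 23.0, above all windows. The Foxc2 shares set against all genes were not matched on this. None of the 4 held the core TGTTTAC or TATTTAC on either strand, which 5.47% of all windows did. That core was found in 48 of the 1289 windows under a Foxc2 peak (3.72%) and in 84 of the 286 windows under a Foxc1 peak (29.4%). The weaker core TGTTTNC, which includes every TGTTTAC, was in 1 of the 4, in 11.1% of windows under a Foxc2 peak, in 33.9% of those under a Foxc1 peak and in 18.1% of all. A Foxc1 peak covered 0 of the 29 forkhead windows and 1.35% of all windows, a share too low for a count of 0 to stand apart. Of the 29 windows, only that of Foxa1 held the main core, shown with 10 bases on each side and the core in capitals.
Foxa1 (chr12:57546236-57546262, minus strand): atactgctttGTAAACAaagtgagggc

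Foxa1 had no peak of either antibody within 100 kb. These matches describe letters in a window, and a window without them says nothing of the factor. Peaks outside promoter windows could not be read for letters, since no genome sequence was used here.

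The Foxd subfamily held the strongest Foxc2 peaks of the family. Foxd1 (chromosome 13, 98354245 to 98356705), a marker of the renal stroma that is also made in podocytes, had 3 Foxc1 and 5 Foxc2 peaks, in a span of 2.46 kb. Of all protein-coding genes, 3.10% had 3 or more Foxc1 summits and 2.03% had 3 or more Foxc2 summits. The Foxc2 peak at 98365917 to 98366569, 11.9 kb past the start, had a fold of 12.3 and ranked 6 of 2878. A Foxc1 peak of fold 5.38 overlapped it, with summits 31 bp apart. Farther out, 39.2 kb past the start, a Foxc2 peak of fold 9.43 (98393158 to 98393669, rank 24) was overlapped by a Foxc1 peak of fold 4.71, with summits 47 bp apart. Between these pairs, at 36.9 kb, lay a Foxc2 peak of fold 5.67 without a Foxc1 peak.

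Within the gene Foxd1 itself lay 1 peak of each antibody. The Foxc2 summit lay 552 bp past the start (fold 8.25, rank 54) and the Foxc1 summit 2.23 kb past it, 227 bp from the far end (fold 9.65, rank 600 of 5207). These summits were 1681 bp apart and the peaks did not overlap. The fifth Foxc2 peak, of fold 3.38, lay 4.73 kb past the start. In Foxd1, as in the gene Foxc1, the Foxc2 summit was the nearer to the start and the Foxc1 summit the nearer to the other end. Foxp1 and Foxl1, which also had a Foxc1 summit within 1 kb of an end, differed. At Foxp1 summits of both antibodies lay 26 bp apart at the same end. At Foxl1, whose strand was not given, both summits lay outside the same end, at 7 bp (Foxc1) and 2087 bp (Foxc2).

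**Figure D3:**
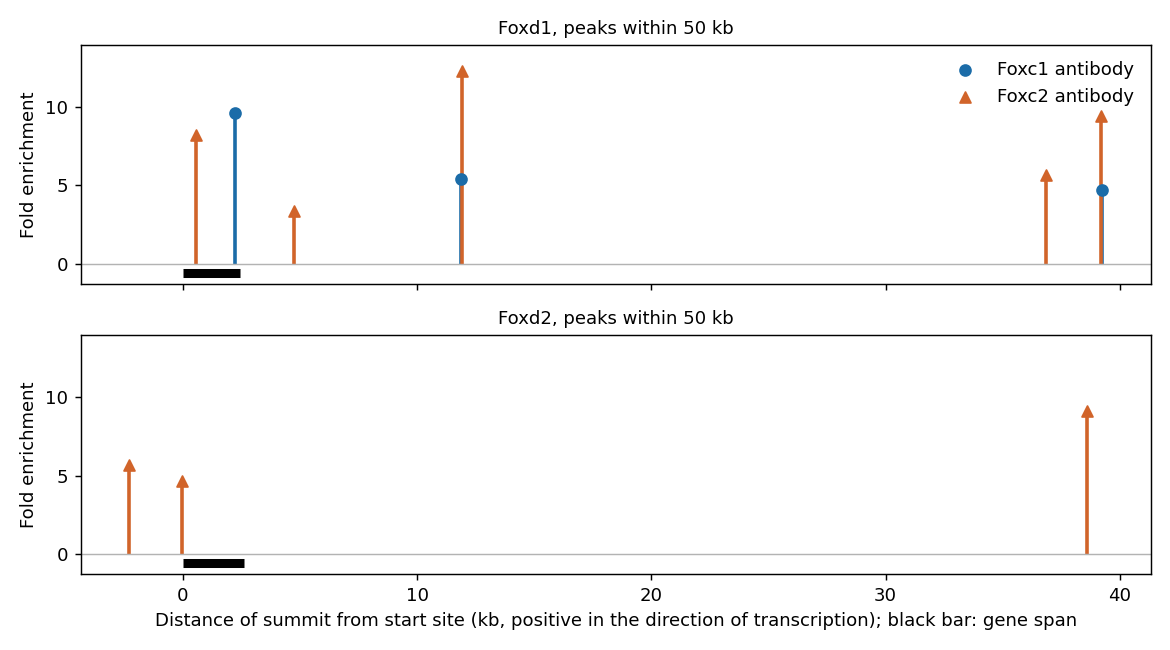
Peaks within 50 kb of Foxd1 (top) and Foxd2 (bottom), by distance of the summit from the annotated start in kb (horizontal) and fold enrichment over local background (vertical; folds are not comparable between antibodies). Foxd1 had pairs of both antibodies at 11.9 and 39.2 kb, and Foxd2 had Foxc2 peaks alone, the strongest at 38.6 kb.

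Foxd2 (chromosome 4, 114906280 to 114908898), whose loss is known to affect kidney growth, had 3 Foxc2 peaks and no Foxc1 peak. The first (114908673 to 114909672, fold 4.65) had its summit 34 bp before the start. The second, of fold 5.67, lay 2.28 kb before the start and inside the long noncoding RNA gene Foxd2os. The strongest, of fold 9.13 and rank 29 of 2878, lay 38.6 kb past the start (114869950 to 114870480), inside the noncoding gene Gm33655. The first and second were also counted for Foxe3, a lens factor, at 15.5 and 13.3 kb. Foxd3, a factor of neural crest, and Foxd4 had no peak.

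The 50 kb limit decided some of these counts. The farthest peak counted from its gene was that of Foxi1, with a fold of 8.57 in the Foxc1 list at 43.9 kb. Foxi1 is a factor of acid-handling cells of the collecting duct. Just outside lay the Foxc2 peak of fold 9.13 near Foxd2, at 54.2 kb from Foxe3, and a Foxc2 peak of fold 4.30 at 56.5 kb from Foxj1. A Foxc2 peak of fold 2.56 lay 62.5 kb from Foxm1, a factor of cell division. An overlapping pair of fold 8.43 (Foxc1) and 9.14 (Foxc2, rank 28) lay 62.8 and 62.9 kb from Foxd2, where the limit left it out.

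The Foxo factors, which insulin signalling through PI3K and Akt keeps out of the nucleus, had a Foxc2 summit within 1 kb of an end in all 3 members, as did 7.47% of all protein-coding genes. Foxo3 (chromosome 10, 42181845 to 42276695) had Foxc2 peaks of fold 5.25 and 5.30, 133 bp and 1.27 kb before the start. The second of these was overlapped by a Foxc1 peak of fold 3.29, near the bottom of its list at rank 5034 of 5207, with summits 78 bp apart. Foxo3 also had Foxc1 peaks inside the gene, of fold 10.6 (42199853 to 42200376, rank 495) and 3.80, at 76.6 and 25.2 kb past the start. Foxo1 had a single Foxc2 peak of fold 3.78 (chromosome 3, 52268537 to 52268939), 474 bp past the start. Foxo6 had a single Foxc2 peak of fold 3.77 (chromosome 4, 120287226 to 120287445), 94 bp outside an end whose strand was not given. Both folds were below the median of the Foxc2 list, 3.97. Foxo1 and Foxo6 had no Foxc1 peak.

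Foxp1 had more peaks than any other member, 7 Foxc1 and 3 Foxc2 peaks, over a span of 597 kb (chromosome 6, 98925342 to 99522746). It encodes a repressor of the Foxp subfamily, whose members pair through a leucine zipper. The strongest Foxc1 peak of the family lay 285 bp outside its upstream end (99522456 to 99523275, fold 21.0, rank 91 of 5207). A Foxc2 peak of fold 4.47 (99522603 to 99523504) overlapped it, with summits 26 bp apart, the closest pair among the forkhead genes. The nearest start site in the promoter table lay 2.04 kb from that Foxc1 summit, and the table lists no start at that end of the gene. Another pair lay inside the gene, 169 kb from an end, with a Foxc1 fold of 5.38 (99094572 to 99095021), a Foxc2 fold of 4.50 (99094607 to 99094887) and summits 59 bp apart. A Foxc1 peak of fold 3.86 (99097077 to 99097312) lay beside this pair. At 45.9 and 47.4 kb from the other end were Foxc1 peaks of fold 6.76 (98971012 to 98971380) and 4.11 (98972583 to 98972914). One of fold 4.75 (99401308 to 99401639) lay 121 kb inside the upstream end and one of fold 5.70 (99523603 to 99524001) 1.05 kb outside it. The remaining Foxc2 peak, of fold 4.13 (99485303 to 99485512), lay 37.3 kb inside that end.

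Foxp2, known for its part in speech circuits, spans 541 kb and had 1 Foxc1 peak, of fold 4.43, 160 kb from an end. Foxp4 had 1 Foxc1 peak of fold 4.60 at 31.9 kb, 584 bp from an end of Mdfi and so nearer to that gene. Neither had a Foxc2 peak. Over spans of 597 and 541 kb, Foxp1 thus had 10 peaks and Foxp2 had 1.

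Foxk1 and Foxk2 encode factors that repress genes of starvation and autophagy. Foxk1 (chromosome 5, 142401497 to 142462015) had 5 Foxc1 and 2 Foxc2 peaks. Inside the gene lay Foxc1 peaks of fold 7.59, 9.18, 5.06 and 3.64, and the last was overlapped by a Foxc2 peak of fold 3.95 (142440248 to 142440785), with summits 175 bp apart. The remaining Foxc1 peak, of fold 4.75, lay nearer to Ap5z1, and the remaining Foxc2 peak, of fold 3.33, was 33.7 kb outside. Foxk2 had a Foxc1 peak inside the neighbour Wdr45b (fold 7.59) and a Foxc2 peak beside Narf (fold 3.14), with no peak inside its own span.

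**Figure D4:**
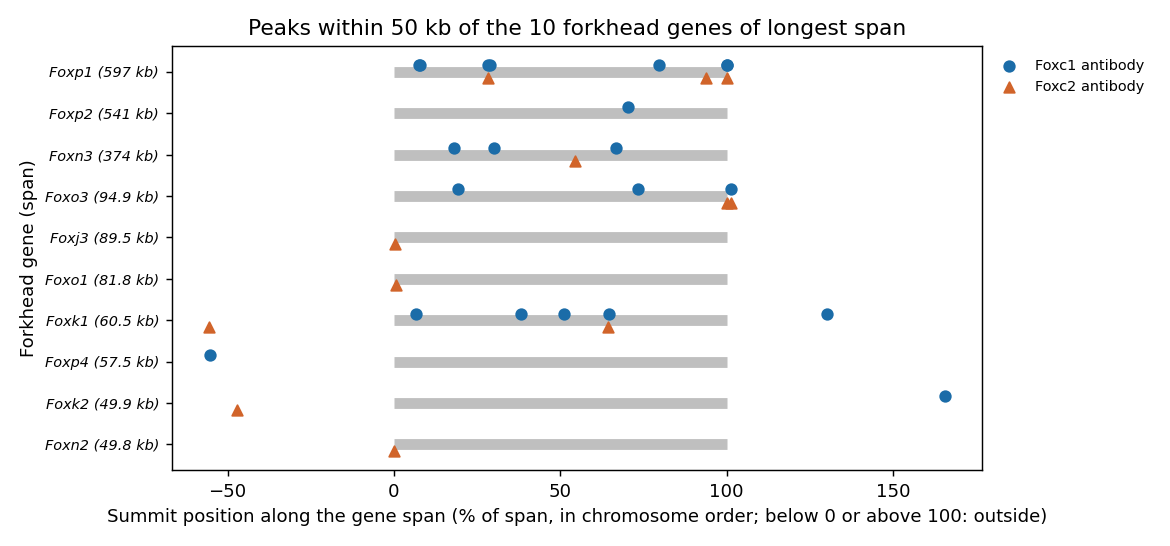
Summits of Foxc1 (blue circles) and Foxc2 (orange triangles) peaks along the 10 forkhead genes of longest span (vertical axis, span in kb), placed as percent of the gene span in chromosome order (horizontal axis). Foxj3, Foxo1 and Foxn2 had a single Foxc2 summit at one end, while most Foxc1 summits of Foxp1, Foxn3, Foxo3 and Foxk1 lay inside the span; summits close together cover each other.

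The Foxn and Foxj genes had peaks inside spans, at ends and outside. Foxn3, linked to cell cycle checkpoints, had 3 Foxc1 peaks inside its 374 kb span on chromosome 12, of fold 6.80 (99257557 to 99257988), 3.96 (99302157 to 99302409) and 3.86 (99439288 to 99439557). A Foxc2 peak of fold 3.87 (99392754 to 99393205) lay among them, and summits of different antibodies were at least 46388 bp apart. Foxn2 had a single Foxc2 peak of fold 3.95 (chromosome 17, 88440497 to 88441196) whose summit lay 46 bp inside an end. Foxj3 had a single Foxc2 peak of fold 4.47 (chromosome 4, 119539356 to 119540185), 244 bp past its start. Foxj2 had a Foxc1 peak of fold 7.92 and a Foxc2 peak of fold 3.90 at 9.46 and 8.85 kb before the start. Their summits were 607 bp apart without overlap, and the Foxc1 summit was nearer to Slc2a3, at 8365 bp. A further Foxc1 peak of Foxj2, of fold 4.11, lay inside Necap1. Foxj1, the master factor of motile cilia, had 1 Foxc1 peak of fold 4.43 at 8.11 kb.

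Foxs1, a factor found in pericytes and sensory neurons, spans only 1.31 kb and had 2 Foxc1 peaks and 1 Foxc2 peak. A Foxc1 peak of fold 8.86 (chromosome 2, 152928040 to 152928477) and a Foxc2 peak of fold 5.16 (152928254 to 152928559) overlapped at 3.62 and 3.45 kb from the gene, with summits 165 bp apart. The other Foxc1 peak, of fold 6.64, lay inside Ttll9. Foxh1, the partner of Smad factors in Nodal signalling, had 2 Foxc2 peaks of fold 3.48 and 3.33, both inside the neighbour Cyhr1.

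No peak of either antibody was counted for 16 members. These were the 3 Foxa genes, which encode pioneer factors of liver and lung, both Foxb genes, Foxd3, Foxd4, Foxe1, Foxf2, Foxi2, Foxi3, Foxl2, Foxm1, Foxn1, Foxn4 and Foxq1. Their median span was 3.67 kb, and 12 of the 16 span under 10 kb, against 11 of the 23 members with a peak, whose median span was 20.2 kb. Foxf2 and Foxq1 lie on chromosome 13 with the gene Foxc1 but more than 50 kb from its peaks. A peak list cannot show that a site is unbound, since a library of less depth or enrichment misses weaker sites.

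The antibodies overlapped at 7 places in the family, at Foxd1 and Foxp1 (2 each) and at Foxk1, Foxo3 and Foxs1 (1 each). These were 7 of 33 Foxc1 peaks (21.2%, exact interval 8.98 to 38.9%). The share was 8.20% over the whole Foxc1 list and 8.53% over its peaks within 50 kb of any protein-coding gene. Both lay just below the lower end of the interval. The same places were 7 of 27 Foxc2 peaks (25.9%, exact interval 11.1 to 46.3%). Here the share was 14.8% over the whole Foxc2 list and 13.9% over its peaks within 50 kb of a gene, both inside the interval. An overlapping pair was counted for 5 of the 39 genes (12.8%), against 3.39% of all protein-coding genes. Summits of the 7 pairs lay 26 to 175 bp apart, with a median of 59.0 bp. Intervals cover counting error only and are not a test. They treat the peaks as separate, although several lay at the same gene, such as 7 Foxc1 peaks at Foxp1.

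Peaks at gene ends were counted for each antibody on its own. Within 1 kb of a gene's own end, a Foxc2 summit was found at 9 of 39 members (23.1%, exact interval 11.1 to 39.3%). The share of all genes was 7.47%. These members were Foxc1, Foxd1, Foxd2, Foxj3, Foxn2, Foxo1, Foxo3, Foxo6 and Foxp1. A Foxc1 summit was found there at 4 (10.3%), which were Foxc1, Foxd1, Foxl1 and Foxp1. The share of all genes, 2.93%, lay just inside their exact interval of 2.87 to 24.2%. Among the 25 members with an annotated start in the promoter table, a Foxc2 summit lay within 1 kb of a start in 6 (24.0%, against 8.36% of all genes in the table). A Foxc1 summit lay there in 0 of 25, against 2.70% of all, so a count of 0 is near the background. The promoter table lists no start for Foxl1 and none at the upstream end of Foxp1. The Foxc1 summits at those ends therefore could not enter this count.

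The places of single peaks were read beside the peaks of the same list with a summit inside or within 50 kb of any protein-coding gene, since the rule took only peaks near genes. Of the 27 Foxc2 peaks at forkhead genes, 11 had a summit within 1 kb of an end of any protein-coding gene (40.7%), against 55.8% of the 2700 such peaks. Inside a protein-coding gene span lay 10 (37.0%), against 70.7%. The 33 Foxc1 peaks gave 6 at gene ends (18.2%), against 12.8% of 4409 peaks, and 21 inside spans (63.6%), against 66.7%. Over the whole Foxc1 list, with peaks far from genes, 56.4% lay inside spans, so the direction of that comparison depends on the reference. These are descriptions of positions that the rule used. More than 10 kb from either end of the member lay 22 of the 33 Foxc1 peaks and 11 of the 27 Foxc2 peaks. The difference between the antibodies was not tested.

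In strength the forkhead peaks spanned most of their lists. The median fold was 5.06 for the 33 Foxc1 peaks, against 4.90 for the list, and 4.47 for the 27 Foxc2 peaks, against 3.97. At or above the upper quartile of its list (6.64 and 4.65) stood 12 of 33 Foxc1 peaks and 9 of 27 Foxc2 peaks. The strongest 1% of the Foxc2 list held 2 forkhead peaks, both at Foxd1, while the strongest 1% of the Foxc1 list held 0.

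**Figure D5:**
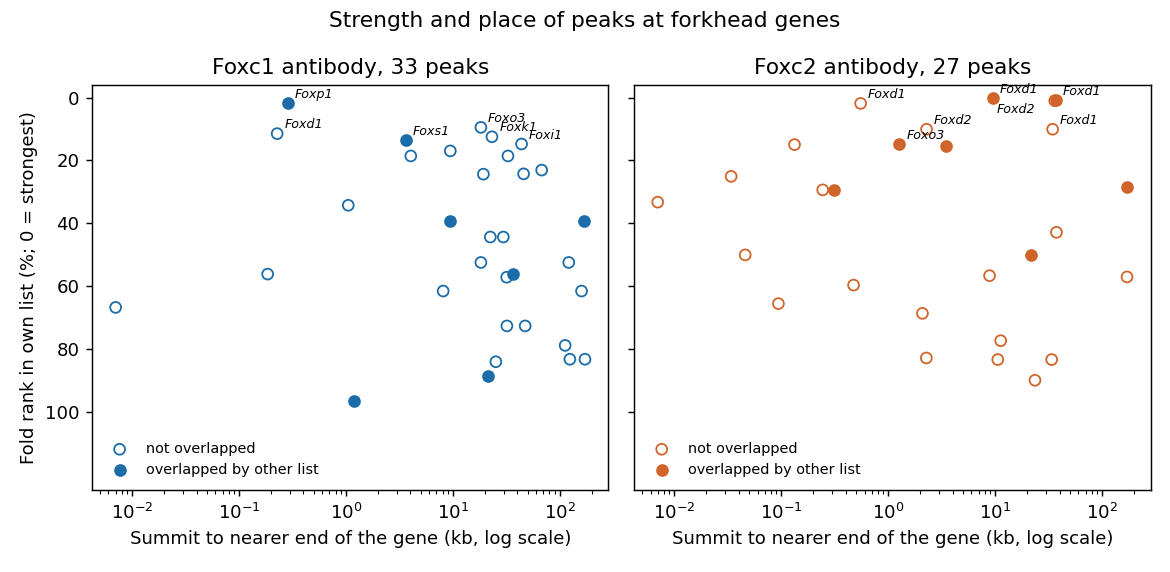
Rank of each forkhead peak by fold within its own list (vertical axis, percent, 0 is the strongest) against the distance of its summit from the nearer end of the forkhead gene (horizontal axis, kb, log scale), for the Foxc1 antibody (left, 33 peaks) and the Foxc2 antibody (right, 27 peaks). Filled points were overlapped by a peak of the other list; of the Foxc2 peaks the top ranks belong to Foxd1 and Foxd2, whose points near 36 kb almost coincide.

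Beyond the family, genes known to control Foxo factors were read as a list. Of 32 such genes, 17 had a Foxc1 summit (53.1%, against 29.3% of all genes), 18 had a Foxc2 summit (56.2%, against 23.2%) and 11 had both (34.4%, against 12.5%). Among those with both, the insulin pathway genes Irs2 and Igf1r each had 2 Foxc1 and 3 Foxc2 peaks, with Foxc2 folds of up to 7.39 and 7.22. The kinase gene Akt1 had 3 Foxc1 and 2 Foxc2 peaks. Ywhaz, which encodes a 14-3-3 protein that binds phosphorylated Foxo, had 3 of each, and Ywhae 2 and 1. Irs1, Mapk8 and Stub1 had 1 of each, and Pik3ca and Prmt1 had 2 and 1. The list was not matched on gene span, and no test was run on it.

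Marker genes of cell types in and around the glomerulus were read by the same rule. Foxc1 summits lay at 9 of 10 podocyte, 2 of 7 endothelial, 5 of 5 mesangial, 3 of 7 tubule and 1 of 5 immune marker genes, against 29.3% of all genes. Foxc2 summits lay at 9, 1, 1, 3 and 1 of them, against 23.2%. The mesangial and the immune gene with a Foxc2 summit, Pdgfrb and Csf1r, had the same folds (Foxc1 5.22, Foxc2 6.02). They may therefore rest on the same peaks. The podocyte share for each antibody (9 of 10) and the mesangial share for Foxc1 (5 of 5) stood well above those of all genes. The mesangial share for Foxc2 (1 of 5) and the endothelial shares (2 of 7 for Foxc1, 28.6%, and 1 of 7 for Foxc2) did not. The tubule share (42.9% for each antibody) was also above, but it rests on 3 of 7 genes. Lists this small cannot decide whether glomerular and tubule markers differ. They were not matched on gene span, and no test was run on them. A peak beside a marker is not its expression.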

How the data were processed

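Peak lists from 1 Foxc1 and 1 Foxc2 ChIP-seq library were analysed, grouped by sample title. Per the submitters' processing notes, Bowtie2 and MACS2 were the tools for alignment and peak calling, on mm10. Versions, settings, the calling control and any pooling: not given in the sources used here. Per peak, the deposited values are a fold enrichment (a ratio to local background), −log10 of p-value and q-value, a score equal to 10 times −log10 q with decimals dropped (not used), and the summit offset. The highest q-value in the lists was 0.0470 for Foxc1 and 0.0465 for Foxc2. Folds ranked peaks within a list only. Depth is unknown.

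Gene spans, and start sites with 250 bases before and 50 after, came from RefSeq tables of GRCm38.p6, the assembly of mm10. All 39 symbols matched, and 25 had a start site. No genome or protein sequence was used, so planned reads of letters in peaks and of protein identity were not made. Peaks overlapped from 1 bp. Exact Clopper-Pearson 95% intervals are given for shares of overlapped peaks and of members with a summit of each antibody. The latter are given over all members, by span class and within 1 kb of an own end. Other shares carry none. With 1 library per antibody no test was made. Scripts (Python 3.11.15, pandas 2.3.3, scipy 1.17.1) recovered the known answers on simulated data.

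The members and lists were chosen with earlier results of these data known. All members with a summit are named. For Foxc1, Foxc2, their neighbours and members with 4 or more peaks, an overlapping pair or a summit within 1 kb of an end, full values were planned. Folds are given for each of their peaks, positions for most, and widths and q-values for few or none. Of the genes that control Foxo factors, those with summits of both antibodies are named, except 1 that is not reported here. Alternatives changed the distance, peak thresholds, assignment, overlap definition and motif. Peaks near any gene as reference, and start sites in place of gene ends, were added after seeing the data.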

Additional observations from a re-analysis of the deposited data

How the results depend on the processing

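Of 56 alternative values, 32 stayed within 1.5 times the reported count and 24 did not. With summits inside the gene span only, the members were 7 for Foxc1, 7 for Foxc2 and 4 for both, at 10 loci, with 17 Foxc1 peaks, 8 Foxc2 peaks and 2 overlaps. With a q-value of 1e-05 or lower, Foxc2 members fell to 9, members with both to 6, Foxc2 peaks to 16 and Foxc2 peaks at gene ends to 6, while Foxc1 members were still 16. With fold 5 or more, the counts were 10 Foxc1 members, 5 Foxc2 members, 3 with both, 11 loci, 17 Foxc1 peaks, 9 Foxc2 peaks, 2 overlaps, and 3 Foxc1 and 2 Foxc2 peaks at gene ends. Peaks within 5 kb of a gene end were 12 and 18. With start sites in place of gene ends, chosen after seeing the data, 1 Foxc1 peak was within 1 kb. The weaker motif was in 5 member windows and the main motif in 1. These counts move by construction, since fewer or more peaks qualify. Member shares stood above those of all genes under each setting for which both were computed, by the least for Foxc1 within 100 kb (48.7% against 42.6%). For Foxc2 they were 23.1% against 11.5% with the q-value limit and 12.8% against 3.90% with fold 5 or more. Assignment to the nearest gene left 11 Foxc1 and 14 Foxc2 members. No paired analysis was possible because each antibody had 1 library. Missing read counts limit every absence of a peak.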
